A study of Zea mays with 10 samples.

Results

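The core histone genes and the centromeric histone gene of maize were compared between captured newly made RNA and total nuclear RNA. The set held 7 genes of 48174 in the counts table, chosen by their gene identifiers. They were the H2A gene his2a1 (GeneID:103639303), the H2B genes his2b2 (GeneID:100193014), histone2b1 (GeneID:100273030) and his2b5 (GeneID:542301), the H3 gene H3C2 (GeneID:100192589), the H4 gene H4C13 (GeneID:100192931) and the centromeric H3 gene cenH3 (GeneID:542500). All 7 had enough counts to be tested, and none overlaps another gene in the RefSeq gene table. That table names few maize genes, so core histone genes listed there by a locus number alone were not analysed here.

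Seedlings of the inbred line B73, 3 days old, were kept for 1 h in water and for 1 h in 175 uM 5-ethynyl uridine (EU), a uridine analog that is built into RNA while it is transcribed. Nuclei came from the last 1 mm of primary and seminal root tips, which holds the meristem. In the EU nascent group, of 5 libraries, the labelled RNA was captured by a biotin-streptavidin pulldown. In the nuclear group, also of 5 libraries, total nuclear RNA from equally labelled tissue was sequenced without capture, so both groups share the genotype and the EU treatment. The libraries held 2391209 to 5770915 counts in EU nascent and 1323450 to 20397606 in nuclear. The labels call the replicates biological but do not say what each was grown from, so p-values measure the spread between these libraries. No pulldown of unlabelled tissue was analysed here, so the share of captured RNA that carried no label is not known. In bulk nuclei, fewer cells with a transcript and less transcript per cell cannot be told apart.

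Histones H2A, H2B, H3 and H4 form the protein spool around which DNA is wound in the nucleosome. Dividing cells make most of their core histones while DNA is being copied, and plant histone messages carry a poly(A) tail. In cenH3 nucleosomes a variant H3 takes the place of canonical H3 and marks where the kinetochore is built, and in plants it is largely loaded outside the phase of DNA copying. Chaperones of several families carry histones to DNA and place them there.

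The tissue label was checked against gene names. All 6 genes of a dividing-meristem list were detected, with a summed level of 263 to 312 CPM (counts brought to the same total in each library) in EU nascent and 239 to 301 CPM in nuclear. Of 24 endosperm names, 19 had no count in any library, but sh2, zpu1 and bt2 were detected (614.5, 585 and 114 counts in all in EU nascent, and 1090.5, 801 and 136 in nuclear), and the summed list was 60.5 to 73.8 CPM in EU nascent and 51.0 to 64.7 CPM in nuclear. Of 15 leaf names, 6 had none, and the rubisco gene ssu1 had 1 count in all in each group, while the summed leaf list reached 653 to 706 CPM in EU nascent and 456 to 509 CPM in nuclear. Nearly all of the leaf sum came from Ppdk1, also listed under a cytosolic name, and me3, and the part of these lists in the results below was not tested. The root hair gene rth3 was detected, and the only name matched for other root types, rtcs1, had no count in any library, which allows up to 0.0564 CPM over all libraries by counting error.

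Transcripts of 5 of the 6 core histone genes examined here made up a smaller part of the captured RNA than of total nuclear RNA. The lower genes were his2b5 and H4C13, at 42.8% and 45.7% of their nuclear level, and histone2b1, his2a1 and H3C2, at 56.4%, 57.6% and 66.3%. The H2B gene his2b2 and the centromeric gene cenH3 did not pass the test. In the quasi-likelihood test of edgeR, adjusted by Benjamini-Hochberg over 21048 genes, 5 of the 7 genes were lower at an adjusted p under 0.05, where 21.1% of all genes tested were lower and 19.8% higher. Their median log2 fold change, EU nascent over nuclear, was -0.80, against 0.02 over all genes tested. The groups did not overlap for the same 5 genes, where 13.6% of all genes tested had every EU nascent library below every nuclear one. Among the 10943 genes whose mean level lay in the range of these genes, 20.3 to 168 CPM, 25.6% were lower and the median log2 fold change was -0.01.

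**Figure D1:**
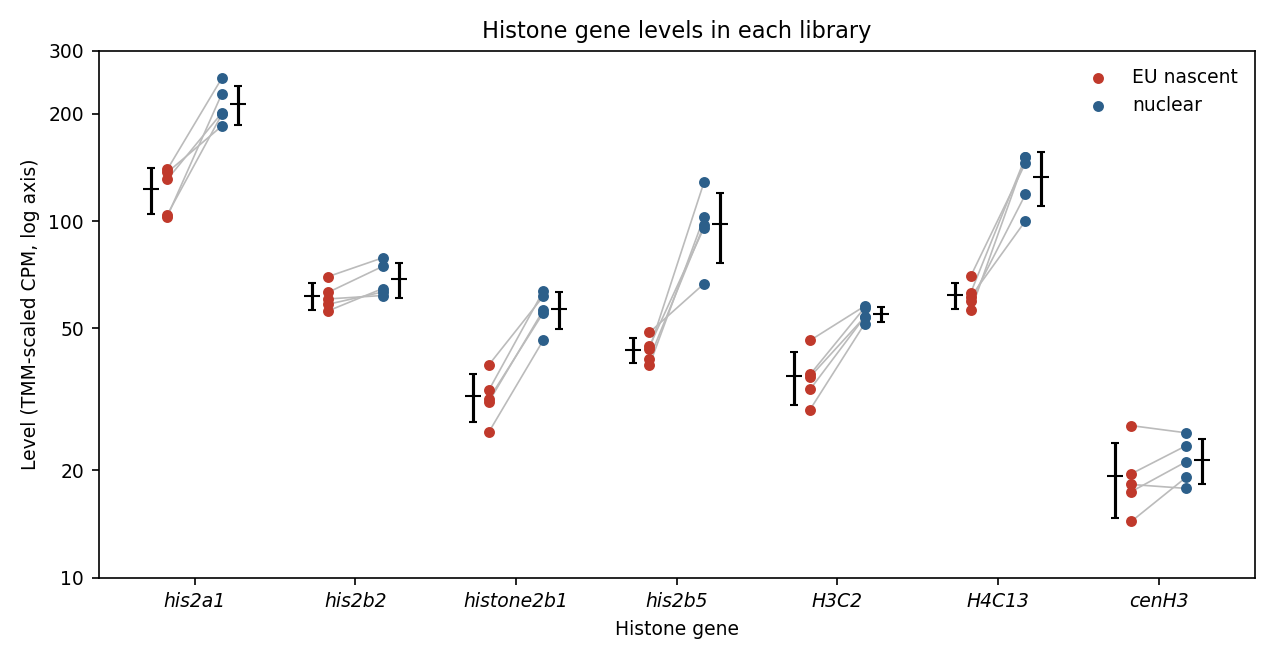
Level of each histone gene in each library, in CPM scaled by the trimmed mean of M-values on a log axis, with EU nascent (red) left of nuclear (blue), grey lines joining libraries of the same replicate number, and black marks for the mean and SD of 5 libraries. For his2a1, histone2b1, his2b5, H3C2 and H4C13 every EU nascent library lies below every nuclear one, whereas for his2b2 and cenH3 the groups overlap.

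H2A pairs with H2B in the nucleosome. The H2A gene his2a1 had 137, 131, 103, 104 and 139 CPM in EU nascent replicates 1 to 5, against 185, 201, 228, 199 and 251.5 CPM in nuclear replicates 1 to 5. The highest EU nascent library stood below the lowest nuclear one. The means were 122.8 ± 17.9 CPM in EU nascent and 213 ± 26.6 CPM in nuclear (SD, 5 libraries each), and the log2 fold change was -0.80 ± 0.10 (SE, edgeR adjusted p = 1.2e-05). That is 57.6% of the nuclear level, with a 95% interval of 49.5% to 67.1%. All 5 differences within a replicate number were negative, from -1.14 for number 3 to -0.43 for number 1 on the log2 scale.

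The 3 genes for H2B, the partner of H2A, did not differ alike between the groups. His2b5 had 48.7, 41.1, 44.5, 39.4 and 43.6 CPM in EU nascent replicates 1 to 5, against 66.7, 97.4, 95.7, 102 and 128 CPM in nuclear replicates 1 to 5. Its nuclear values were the more widely spread, with replicate 1, the shallowest library, lowest and replicate 5 highest. The means were 43.5 ± 3.55 CPM in EU nascent and 98.2 ± 21.99 CPM in nuclear (SD, 5 libraries each). The log2 fold change was -1.22 ± 0.12 (SE, edgeR adjusted p = 4.5e-07), or 42.8% of the nuclear level (95% interval 35.9% to 51.0%). Counted from the lowest log2 fold change, it ranked 448 of the 21048 genes tested. Within replicate numbers the log2 difference ran from -1.55 for number 5 to -0.45 for number 1, so number 1 stood apart from the other 4, all at -1.10 or below.

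Histone2b1 had 25.6, 31.1, 39.5, 31.6 and 33.5 CPM in EU nascent replicates 1 to 5, against 46.4, 56.3, 61.6, 55.4 and 63.6 CPM in nuclear replicates 1 to 5. The groups were clear of each other, and the lowest library in each was replicate 1. The log2 fold change was -0.83 ± 0.11 (SE, edgeR adjusted p = 8.8e-06), or 56.4% of the nuclear level (95% interval 48.3% to 65.8%). Its differences within replicate numbers were even, from -0.92 to -0.64.

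His2b2 had 60.5, 58.4, 63.1, 56.0 and 69.8 CPM in EU nascent replicates 1 to 5, against 61.8, 63.3, 74.6, 64.7 and 78.8 CPM in nuclear replicates 1 to 5. The groups overlapped, although each EU nascent library was below the nuclear library of its own number, by 0.03 to 0.24 on the log2 scale. The log2 fold change was -0.16 ± 0.09 (SE, edgeR adjusted p = 0.17), with a 95% interval of -0.35 to 0.03, so that a decrease to 78.5% of the nuclear level lies within it. With library totals alone in place of trimmed-mean scaling, the value was 0.01.

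The ratio of one H2B gene to another within a library does not depend on how libraries are scaled, and was used to compare their changes. The log2 ratio of histone2b1 to his2b2 averaged -0.93 ± 0.21 in EU nascent and -0.27 ± 0.09 in nuclear (SD, 5 libraries each), a difference of -0.66 (exact two-sided permutation p = 0.00794, adjusted 0.0159 over 4 ratios). That of his2b5 to his2b2 averaged -0.50 ± 0.13 in EU nascent and 0.49 ± 0.25 in nuclear, a difference of -0.99 (exact permutation p = 0.00794, adjusted 0.0159, 5 libraries each). The p of both is the smallest that 5 against 5 libraries allow, and both ratios were lower in EU nascent in 5 of 5 replicate numbers. Blocked on the replicate number, neither could pass, because the smallest p of the exact sign-flip test with 5 numbers is 0.0625 (adjusted 0.0833 for both).

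The log2 ratio of his2b5 to histone2b1 averaged 0.43 ± 0.28 in EU nascent and 0.76 ± 0.20 in nuclear (SD, 5 libraries each). The difference of -0.33 did not pass (exact permutation p = 0.0714, adjusted 0.0873). The ratio was lower in EU nascent in 4 of 5 replicate numbers. In the first EU nascent library it was 0.91, against 0.17 to 0.40 in the other 4 EU nascent libraries. Without that library the difference was -0.45 and passed (adjusted exact permutation p = 0.0212). Leaving out any other single library did not make it pass (adjusted exact permutation p of 0.0794 to 0.175), so the call depends on that library.

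**Figure D2:**
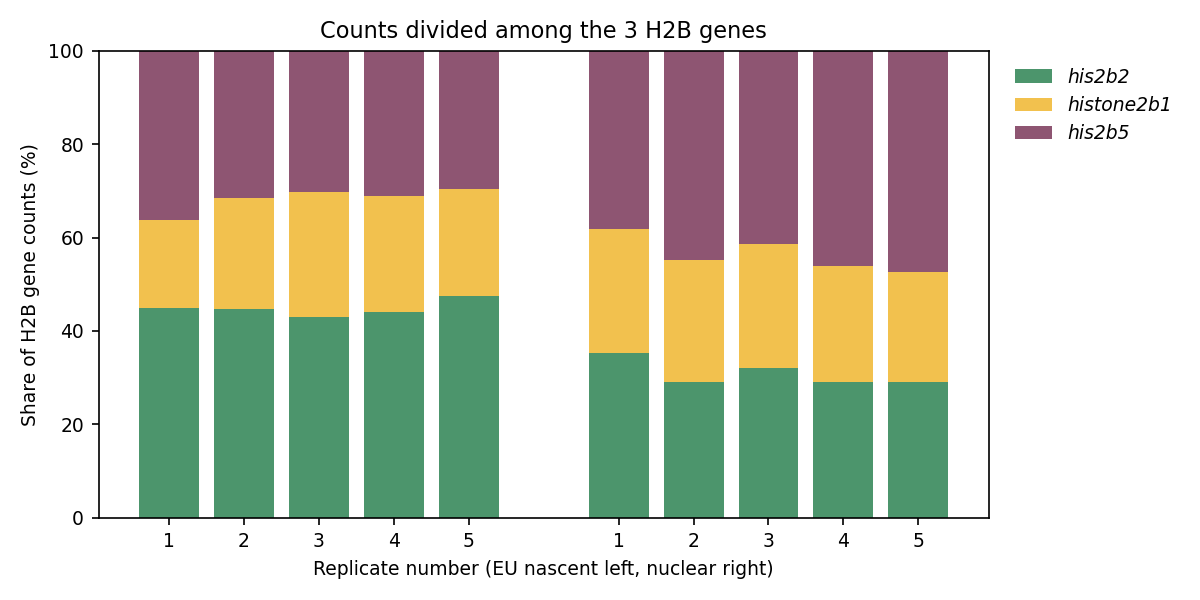
Share of the summed counts of the 3 H2B genes, in percent, that fell to his2b2, histone2b1 and his2b5 in each library, with EU nascent replicates 1 to 5 on the left and nuclear replicates 1 to 5 on the right. His2b2 took 42.9% to 47.5% in EU nascent and 29.1% to 35.3% in nuclear, while his2b5 took 29.7% to 36.1% in EU nascent and 38.1% to 47.4% in nuclear.

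In shares of the counts of these H2B genes, his2b2 took 44.8% ± 1.70 in EU nascent and 31.0% ± 2.78 in nuclear, and his2b5 took 31.7% ± 2.57 in EU nascent and 43.6% ± 3.78 in nuclear (SD, 5 libraries each). Histone2b1 took 23.5% ± 2.92 in EU nascent and 25.5% ± 1.29 in nuclear, with overlapping groups. His2b2 thus took the largest share of the 3 in every EU nascent library, and his2b5 did so in every nuclear library. Shares compare libraries and not the levels of the genes, which would need their lengths.

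H3 and H4 pair to form the tetramer at the centre of the nucleosome. The H4 gene H4C13 had 61.3, 70.1, 59.6, 56.1 and 63.0 CPM in EU nascent replicates 1 to 5, against 100, 145, 119, 151 and 151 CPM in nuclear replicates 1 to 5. The EU nascent libraries were close together, and the nuclear ones fell into a lower pair, replicates 1 and 3, and a higher 3. Replicates 1 and 3 were also the shallowest libraries of the nuclear group. The means were 62.0 ± 5.18 CPM in EU nascent and 133 ± 22.8 CPM in nuclear (SD, 5 libraries each). The log2 fold change was -1.13 ± 0.10 (SE, edgeR adjusted p = 2.1e-07), or 45.7% of the nuclear level (95% interval 39.3% to 53.2%). Without replicate numbers 1 and 3 in both groups it was -1.24.

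The H3 gene H3C2 had 46.3, 29.6, 37.1, 36.6 and 33.7 CPM in EU nascent replicates 1 to 5, against 57.8, 51.6, 57.2, 53.8 and 53.9 CPM in nuclear replicates 1 to 5. Here the EU nascent libraries were the more widely spread, with replicate 1 highest, and the nuclear ones stayed between 51.6 and 57.8 CPM. The means were 36.7 ± 6.14 CPM in EU nascent and 54.9 ± 2.58 CPM in nuclear (SD, 5 libraries each). The log2 fold change was -0.59 ± 0.10 (SE, edgeR adjusted p = 0.00019), or 66.3% of the nuclear level (95% interval 57.0% to 77.1%). The gene table files several H3 names under the identifier of H3C2 and several H4 names under that of H4C13. Near-identical copies can share reads, so the level of each is uncertain. The same table also files another H3 name, Hist1h3b, under the identifier of cenH3.

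The centromeric gene cenH3 was the least deeply counted of the set, with 26 to 366 counts per library, and 26 counts have an exact 95% Poisson interval of 16.98 to 38.1. It had 17.5, 18.3, 26.7, 14.4 and 19.6 CPM in EU nascent replicates 1 to 5, against 21.2, 17.8, 25.5, 19.1 and 23.5 CPM in nuclear replicates 1 to 5. The groups overlapped throughout, and replicate 3 was the highest of both. The means were 19.3 ± 4.56 CPM in EU nascent and 21.4 ± 3.13 CPM in nuclear (SD, 5 libraries each).

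The log2 fold change of cenH3 was -0.14 ± 0.15 (SE, edgeR adjusted p = 0.5), with a 95% interval of -0.46 to 0.18 that leaves room for a decrease to 72.6% or an increase to 114% of the nuclear level. It was lower in EU nascent in 3 of 5 replicate numbers. With library totals alone the value was 0.03. Differences in change between cenH3 and core histone genes other than H3C2 were not tested.

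Canonical against centromeric H3 was one of the 4 ratios tested. The log2 ratio of H3C2 to cenH3 averaged 0.92 ± 0.40 in EU nascent and 1.34 ± 0.18 in nuclear (SD, 5 libraries each), lower in EU nascent in 5 of 5 replicate numbers. The difference of -0.42 did not pass (exact permutation p = 0.0873, adjusted 0.0873). In EU nascent the ratio was 1.37 in replicate 1 and 1.33 in replicate 4, against 0.46 to 0.77 in the others. Leaving out EU nascent replicate 1, in which H3C2 was highest, gave -0.53, which passed (adjusted exact permutation p = 0.0476). Leaving out EU nascent replicate 4, in which cenH3 was lowest, gave -0.52, which did not pass (adjusted exact permutation p = 0.0635). The call thus depends on which library is left out.

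**Figure D3:**
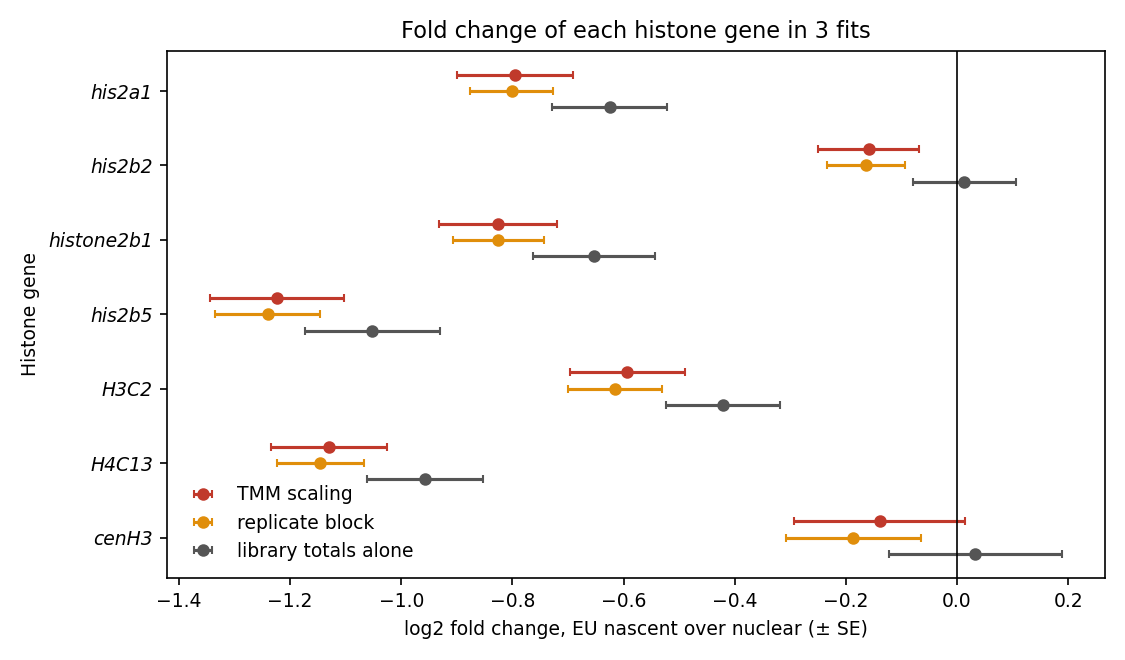
Log2 fold change of each histone gene, EU nascent over nuclear, with its SE from edgeR, using trimmed-mean scaling (red), the replicate number as a block (orange) and library totals alone (grey). The 5 genes from his2a1 to H4C13 other than his2b2 stay between -1.24 and -0.42 in these fits, and his2b2 and cenH3 lie near 0, with a sign that turns when library totals alone are used.

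Scaling set the zero of these values. With library totals alone the median log2 fold change over all genes was 0.19, a shift of 0.17, and 7386 genes were then higher and 2765 (13.1%) lower, against 4166 higher and 4436 lower with trimmed-mean scaling. His2b5 and H4C13 had -1.05 and -0.96 on that scale, histone2b1 -0.65, his2a1 -0.62 and H3C2 -0.42, and all 5 still passed (edgeR adjusted p of at most 0.00249). With the replicate number as a block, where 25.4% of all genes were lower, the same 5 genes were called and his2b2 came closest of the others (-0.16, edgeR adjusted p = 0.0541).

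The 6 core histone genes together had 379, 361, 347, 324 and 383 CPM in EU nascent replicates 1 to 5, against 517, 615, 635, 626 and 727 CPM in nuclear replicates 1 to 5. As a share of raw counts they took 0.0378% ± 0.0023 in EU nascent and 0.0585% ± 0.0072 in nuclear (SD, 5 libraries each). Within the nuclear group, replicate 1 lay below the group mean for 5 of the 6 genes and replicate 5 above it for 5 of the 6. Within EU nascent, replicate 4 lay below for 5 of the 6 and replicate 5 above for 5 of the 6. H3C2 was the gene that went the other way in nuclear replicates 1 and 5 and in EU nascent replicates 4 and 5. The estimated biological coefficient of variation was 0.085 to 0.129 for the 7 genes, against a median of 0.103 over all genes tested.

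**Figure D4:**
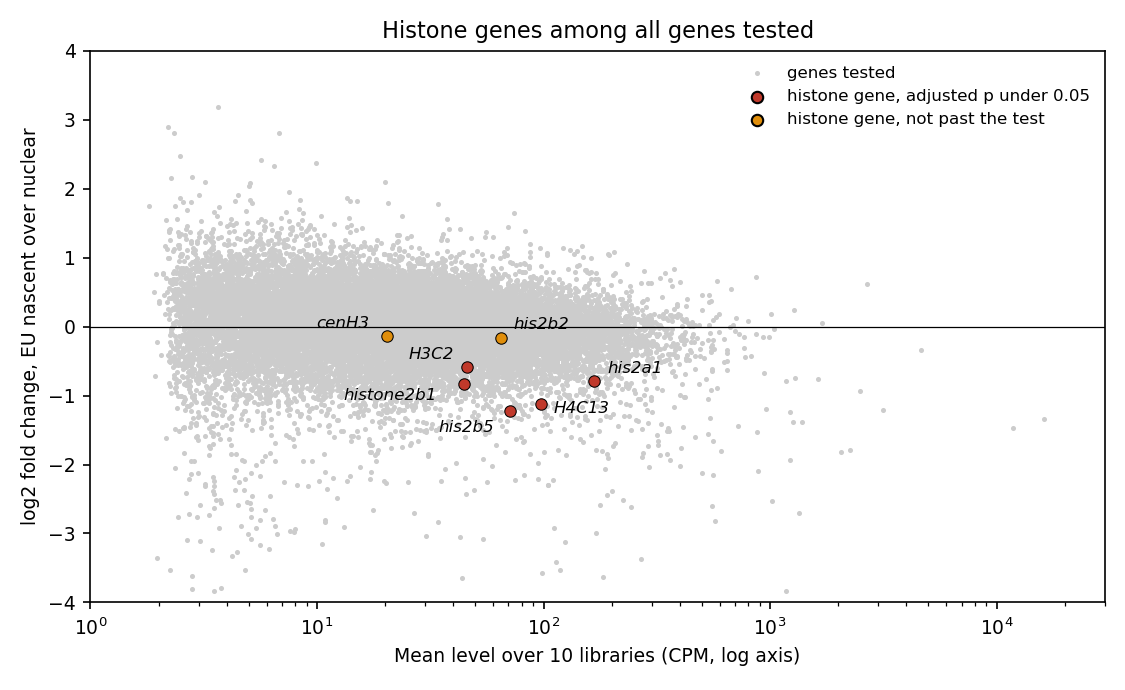
Log2 fold change, EU nascent over nuclear, against mean level over 10 libraries in CPM on a log axis, for the genes tested (grey) and the 7 histone genes (red where the adjusted p was under 0.05, orange otherwise). The 5 genes past the test lie at -0.59 to -1.22, in the lower part of the grey cloud at their level, and his2b2 and cenH3 lie inside it.

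The profiles most like those of the histone genes were sought among 1528 named genes with a mean of at least 10 CPM, by the root mean square (RMS) difference of centred log2 CPM over the 10 libraries. For his2b5 the closest was the elongation factor gene elfa3 (RMS 0.10, log2 fold change -1.29), followed by ATP2 and the benzoxazinoid gene bx9. For H4C13 the closest were eIF-4A (RMS 0.12, -0.97), a translation initiation helicase gene, ATP2 and cdj2. For his2a1 they were cyclin4 (RMS 0.13, -0.71), nfc104 and AUX35. For histone2b1 they were the high mobility group gene HMG11 (RMS 0.11, -0.71), adss1 and the histone chaperone gene nfa103, and for H3C2 they were CRH (RMS 0.10, -0.65), the microRNA precursor gene MIR156f and the DNA methyltransferase gene met5. The genes closest to his2b2 were fps (RMS 0.08, -0.08), LOS4 and CYTMDH, and those closest to cenH3 were nfa104 (RMS 0.13, -0.04), bZIP96 and the single-myb-histone gene smh3. Among the histone genes themselves, his2b5 and H4C13 were the most alike (RMS 0.15), and his2b5 and cenH3 the least (RMS 0.57). Each gene was centred on its mean over all 10 libraries, so the RMS includes the difference between the groups. Genes with a like fold change thus come out close, and shared variation within the groups was not tested.

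Histone chaperone genes were the related list with the largest part lower. Of 12 names matched, 7 were lower and 1 was higher by edgeR, 4 were not called, and the median log2 fold change was -0.57, where 21.1% of all genes tested were lower and 19.8% higher. Nap1, the most abundant match (0.06 ± 0.07, SE), is also listed as BRK3, a name from a complex that regulates actin. Without it 7 of 11 were lower with a median of -0.60. These 11 were matched by name alone, and whether CAF1 (0.33 ± 0.14, SE, not called) codes for a histone chaperone was not checked. Nfa101, of the nucleosome assembly protein family, was lower by -0.67 ± 0.08 (SE), at 105 ± 6.02 CPM in EU nascent and 167 ± 19.4 CPM in nuclear (SD, 5 libraries each). Its relatives nfa102 (-0.99 ± 0.09) and nfa103 (-0.92 ± 0.11) were lower too, whereas nfa104 had -0.04 ± 0.13 and did not pass.

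Of the FACT complex, which opens nucleosomes for polymerases, SPT16 was lower by -0.60 ± 0.07 (SE), while its partner ssrp1 had -0.06 ± 0.10 and did not pass the test. Of the nfc genes, which code for WD-repeat proteins found in chromatin assembly complexes, nfc101, nfc102 and nfc104 were lower (-0.54 to -0.68) and nfc103 was higher by 0.34 ± 0.11. That call was lost without nuclear replicate 4 (edgeR adjusted p = 0.0505). It was also lost with libraries thinned to the smallest total, where 0 of 12 chaperone genes were higher, against 2442 of 17078 genes tested. A fit without genes with fractional counts outside the core and centromeric histone set left out nfc103. There 5 of 8 chaperone genes tested were lower, against 3053 of 15344 genes tested. The count of higher chaperone genes was 2 without EU nascent replicate 1 or 3 and with the replicate block (24.2% of all genes higher). It was also 2 with limma-voom (4553 of 21048 genes higher) and with upper-quartile scaling (4866 of 21048). Without replicate numbers 1 and 3 in both groups it was 2 as well (4358 of 21904 genes higher). With library totals alone (35.1% of all genes higher) it was 3, or 2 without Nap1. In each of these fits 7 were lower. These values, other than those of Nap1 and nfa101, were picked for naming after they were seen. Nothing here tests whether chaperone and histone genes moved together.

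DNA replication genes were mixed. Among 10 genes, edgeR called 4 lower and 2 higher and left 4 uncalled, against 21.1% lower and 19.8% higher over all genes tested, so the higher count is at the level of all genes. The median was -0.22, and 2 were lower with library totals alone (median -0.05), where 13.1% of all genes were lower. MCM6, a subunit of the replicative helicase, was lower by -0.41 ± 0.09 (SE) and orc1, of the origin recognition complex, by -0.69 ± 0.10, whereas orc4 of the same complex was higher by 0.48 ± 0.08. Of the sliding clamp genes, pcna2 had -0.30 ± 0.10 (edgeR adjusted p = 0.027) and the gene listed as PCNA and pcna1 had 0.28 ± 0.09 (edgeR adjusted p = 0.026). The call of PCNA was lost without EU nascent replicate 4 or nuclear replicate 2 or 4, each of which left 1 higher gene in the list. That of pcna2 was lost with library totals alone (-0.13, edgeR adjusted p = 0.32) and without EU nascent replicate 2, 4 or 5 or nuclear replicate 3, 4 or 5.

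Of 4 kinetochore and checkpoint genes, edgeR called 1 lower and left 3 uncalled, a share near the 21.1% of all genes tested that were lower. Their median of -0.11 turned to 0.07 on library totals. The lower one was mad2, of the spindle checkpoint, at 19.5 ± 2.35 CPM in EU nascent and 39.9 ± 7.76 CPM in nuclear (SD, 5 libraries each). CenpcA, whose product binds centromeric nucleosomes, had 0.09 ± 0.11 (SE), and mis12-2, of the kinetochore, had 0.14 ± 0.10. Cyclin and cyclin-dependent kinase names matched 14 genes, of which 7 were krp genes that the table also lists as kinesins. Without those, 2 of 6 tested were lower and 2 higher (median 0.09), against 21.1% lower and 19.8% higher over all genes tested. Among the 6, cycD2 had -0.45 ± 0.09 and cyc1, a mitotic cyclin, had 0.69 ± 0.10. The list did not match every cyclin name, and it left out cyclin4, which was lower (-0.71 ± 0.10, edgeR adjusted p = 2.3e-05). Of the 13 tested with the krp genes, 6 were lower and 2 higher, and krp15 had -0.41 ± 0.08. With library totals alone, where 13.1% of all genes were lower, 1 of the 6 and 3 of the 13 were lower, and without EU nascent replicate 2 or 4, or nuclear replicate 3 or 5, 1 of the 6 was lower. Of the 4 linker histone genes 2 were higher and 2 were not called (median 0.23), against 19.8% of all genes tested higher. Hon110 had -0.04 ± 0.10 and his1a had 0.42 ± 0.10. All 4 had fractional counts, so the fit without such genes did not include them.

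**Figure D5:**
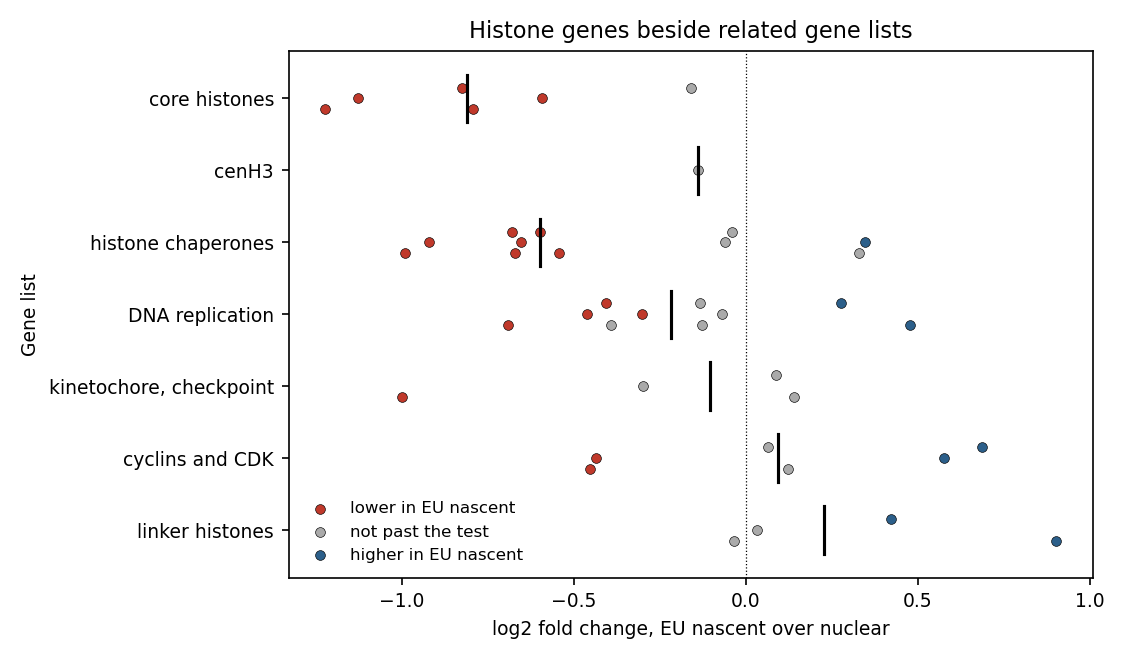
Log2 fold change, EU nascent over nuclear, of the 6 core histone genes, cenH3 and the tested genes of related lists without names that point elsewhere, coloured by the edgeR call, with a black bar at each median. Core histones (median -0.81) and histone chaperones (median -0.60) lie mostly to the left of 0. Of the linker histones (median 0.23), his1a and hon101 lie to the right, and H1 and hon110 lie near 0.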

How the data were processed

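Per the labels' protocols, ribosomal RNA was removed from nuclear RNA, and the libraries were strand-specific and carried molecular identifiers. HTSeq, UMI-tools, deepTools, SAMtools, STAR 2.7.10b and 2 releases of Trimmomatic (0.36, 0.39) appear in the submitters' processing notes, without their roles. The genome build, annotation and strand setting are not given in the sources used here. Unnormalized expected counts per gene are the unit given here to the values the authors deposited, since 96.26% of them were whole within 1e-06 and the rest fractional. Where the fractions come from is not given in the sources used here. Of the 7 histone genes, 3 had a fraction, in 1 library each and of at most 0.5 counts. Reads that match several histone copies equally may have been left out or divided before deposition, which the files do not show. The deposited series table and library files held the same values (0 differences).

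Counts were rounded and tested for EU nascent over nuclear with edgeR 4.0.16 in R 4.3.3, using filterByExpr, TMM scaling, the quasi-likelihood F test and Benjamini-Hochberg adjustment at 0.05. SE is the absolute log2 fold change divided by the square root of F, and 95% intervals use the t distribution of that fit. Levels are TMM-scaled CPM. Ratios of genes used rounded counts plus 2 and an exact permutation test (scipy 1.17.1, numpy 2.4.6, pandas 2.3.3, Python 3.11.15) over all assignments of the libraries to groups. Profiles used log2 CPM with a prior count of 2. DESeq2 1.42.0 and limma-voom (limma 3.58.1) were alternatives. The edgeR and permutation code was tested on simulated data. Poisson intervals and the floor of 3 counts cover counting error only.

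Same-numbered libraries deviated together, with correlations across genes of 0.16 to 0.22, against at most 0.11 between other numbers. The pairing was taken from these values, since the labels do not say what a number shares. Gene names were looked up in RefSeq (assembly Zm-B73-REFERENCE-NAM-5.0), matched for 48127 of 48174 identifiers and used for names and neighbours only. Named genes were the 7 histone genes, the 2 most abundant tested genes of each related list and the 3 most alike profiles per gene, and others named were chosen after their values were seen. The genes, lists and ratios were chosen with earlier results of these data known. Protein families and promoter motifs had been planned and were not analysed here, since no sequences were used.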

Additional observations from a re-analysis of the deposited data

How the results depend on the processing

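The calls of his2a1, histone2b1, his2b5, H3C2 and H4C13 kept their direction and stayed past the threshold in all 22 alternative fits, with edgeR, DESeq2 or limma-voom adjusted p of at most 0.00249, while his2b2 and cenH3 passed in none of them (lowest adjusted p 0.0541 and 0.182). The replicate block changed no call of these genes in edgeR. The block counted 10446 genes in all (5099 higher and 5347 lower), against 8602 without it (4166 and 4436). The direction of his2b2 turned to 0.013 with library totals alone, 0.010 with library totals and the replicate block together, and 0.019 with libraries thinned to the smallest total. That of cenH3 turned to 0.033 with library totals alone and 0.13 with thinned libraries. The thinned and combined fits were chosen after seeing the data. Library totals alone gave 7386 genes higher and 2765 lower, and 8474 higher with the block. Thinned libraries gave 5287 called, 2442 higher and 2845 lower, from fewer counts.

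Leaving out 1 library in turn gave 7304 to 9269 calls, 3406 to 4636 of them higher and 3898 to 4633 lower, with 5 of the 7 genes lower each time. The log2 fold changes then ran from -1.31 to -1.11 for his2b5, -1.20 to -1.08 for H4C13, -0.88 to -0.76 for histone2b1, -0.84 to -0.73 for his2a1, -0.66 to -0.52 for H3C2, -0.20 to -0.10 for his2b2 and -0.24 to -0.04 for cenH3. The ratio differences ran from -0.72 to -0.58 for histone2b1 to his2b2, -1.08 to -0.93 for his2b5 to his2b2, -0.45 to -0.26 for his2b5 to histone2b1 and -0.53 to -0.30 for H3C2 to cenH3. The sign-flip test, which blocks on replicate number, kept the differences of -0.66 and -0.99 and could not pass. Other pseudocounts changed no call of the 4 ratios. Depth limits cenH3 most, where counting alone gives an error of 19.6% at its lowest count.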
